A study of Homo sapiens with 18 samples.

Results

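MDA-MB-231 cells, a mesenchymal-like human breast cancer line, were kept for 16 hours in serum-free medium at 1% oxygen (H) or in normoxia (N), with or without 10 µM epirubicin. The question was whether epirubicin altered the response of these cells to hypoxia. The arrays compared were H epi and N epi (epirubicin) and H and N (no drug), with 3 arrays in each of these 4 conditions, 12 of the 18 arrays deposited. The remaining arrays, of cells with paclitaxel, entered only 3 alternative fits, those of all 6 conditions and the grouping by source name. For each of 24213 probe sets the hypoxia effect with epirubicin (H epi minus N epi), the hypoxia effect without drug (H minus N) and their difference were computed on log2 Affymetrix HG-U133 Plus 2.0 signals. A negative difference means that hypoxia raised a transcript less, or lowered it more, with epirubicin than without. The arrays are of 1 cell line. The study speaks of independent experiments, but the labels tie no array to a separate culture, so the p-values measure only the spread between these arrays.

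Cells sense low oxygen through hypoxia-inducible factor (HIF). In normoxia, prolyl hydroxylases such as EGLN1 and EGLN3 mark the alpha subunits HIF1A and EPAS1 for destruction. In hypoxia the alpha subunit escapes this mark, pairs with ARNT and binds the core ACGTG or GCGTG in its target genes, which serve glycolysis, angiogenesis, matrix modification and the removal of mitochondria. Epirubicin is an anthracycline, which inserts into DNA and poisons topoisomerase II.

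Arrays were grouped by their titles. On the arrays numbered 3 the source name gave another drug than the title, at the same oxygen level. For each of the 6 such arrays of the series, the correlation with arrays 1 and 2 of the titled condition was 0.9927 to 0.9986, above the 0.9379 to 0.9881 found for the condition of the source name. The N epi array numbered 3 was closest to H epi (0.9949). The array N epi replicate 2 stood apart in another way. Its mean correlation with the N arrays was 0.9454, against 0.8998 and 0.8981 for N epi replicates 1 and 3, and 917 probe sets had an SD above 1 in N epi, against 161 in H epi, 17 in H and 17 in N. Values below are from all 12 arrays unless another set is named. Of the 52 called differences described for single genes, 51 were tested on the 8 arrays numbered 1 and 2, all with the same sign there, and 25 were called. These 8 arrays are part of the 12, so the shared sign was largely fixed by the overlap. The 26 not called there were those of ADM, STC1, KDM3A, KDM4B, KDM2B, HSP90B1, PDIA4, TNFSF10, TIGAR, RRP12, POLR1A, WDR12, NOP58, RRS1, VIPR1, CCNB1, BIRC5, ID1, RAB20, DIPK2A, APOLD1, GPAT4, SOX4, BBS5, PHC1 and TMEM182. Without N epi replicate 2, 48 of the 52 were called, and those of VIPR1 (adjusted p = 0.0576), GPAT4 (0.0571), TNFRSF25 (0.0666) and TMEM182 (0.0805) were not. The genes described had 55 other probe sets tested. For genes with a called difference, 31 of these were called with the same sign and 0 with the opposite sign. The 18 not called belong to BIRC5, CCNB1, GPAT4, HSP90B1, HSPA4, KDM4B, PDK1, PHC1, SOX4, ST3GAL1, TFRC, TMEM182, WDR12 and WDR4. A probe set was called present above a log2 signal of 3.14, and 41.4% to 42.4% passed on each array. All 8 markers of the mesenchymal-like line were present in each condition, and none of the 5 blood cell markers measured was. Of 8 luminal markers, 4 were present in H epi, 5 in N epi, 4 in H and 4 in N, with PGR, FOXA1 and CDH1 in none, and their summed linear signal was 1376 to 2053 in H epi and 1869 to 2355 in N epi, against 15634 to 19200 in H and 9328 to 12462 in N. Among the luminal markers KRT19 was at 10.2 to 11.1 on the epirubicin arrays and at 13.1 to 14.2 on the others, and it made up most of this sum. The other luminal markers did not all go the same way. GATA3 was at 4.71 to 6.46 on the epirubicin arrays and at 7.84 to 8.79 on the others. TFF1 was higher with epirubicin, at 5.58 to 7.49 against 3.47 to 4.05, and ESR1 reached 3.47 there against at most 2.31. The median signal of the tested probe sets was 6.71 to 7.16 on the epirubicin arrays and 7.34 to 7.48 on the others. The 3′ minus 5′ signal of ACTB was -0.307 to -0.176 on the epirubicin arrays and -0.042 to 0.306 on the others. The part of these differences in the results was not tested. Signals are relative to the other RNAs on an array, and in bulk RNA fewer cells and less RNA per cell cannot be told apart.

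Most of the response to hypoxia that could be measured without drug was not found with epirubicin. Without drug, hypoxia raised 1710 probe sets (7.06% of those tested) and lowered 3041 (12.6%). With epirubicin it raised 84 (0.347%) and lowered 335 (1.38%). The difference between the hypoxia effects was higher than 0 for 1449 probe sets (5.98%) and lower for 1005 (4.15%), by limma with a Benjamini-Hochberg adjusted p under 0.05. In the arrays numbered 1 and 2 the difference was called higher for 99 (0.417%) and lower for 225 (0.948%) of 23737 probe sets, the effect with epirubicin was called higher for 8 (0.0337%) and lower for 18 (0.0758%), and the effect without drug was called higher for 836 (3.52%) and lower for 816 (3.44%). Of the 2454 probe sets called for the difference on all arrays, 2432 were tested on the arrays numbered 1 and 2, and 2432 had the same sign there, with 294 called on both. The arrays numbered 1 and 2 are among the 12 fitted, so the agreement in sign was largely fixed by this overlap. Without N epi replicate 2 the difference was called for 2321, of which 1919 were among the 2454. Without N replicate 1, N replicate 2 or H replicate 1, calls numbered 1420, 1475 and 1513. The split of the hypoxia effects depended on the scaling of the arrays. With median centring, epirubicin calls were 204 higher and 410 lower and calls without drug 1969 higher and 1940 lower. With quantile normalization they were 179 higher and 409 lower with epirubicin, and 2287 higher and 2741 lower without drug. Fitted on the H epi and N epi arrays alone, the effect with epirubicin was called for 0 probe sets by limma, with 2656 at an unadjusted p under 0.05, so the calls with epirubicin rest on the spread shared by the 4 conditions. With the arrays numbered 3 grouped by source name, limma called 0 probe sets for the difference, with 106 at an unadjusted p under 0.05. That grouping is not among the 23 alternatives for which calls of single genes are counted below, and no gene was called under it.

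Each response was placed in a class by its calls. A response was lost where hypoxia changed the probe set without drug, no change was called with epirubicin and the difference was called with the opposite sign. It was kept or reversed where both hypoxia effects were called, with the same or with opposite signs. It was gained where only the effect with epirubicin was called and the difference had the same sign, and undecided where only the effect without drug was called. The difference and the effect without drug share the H and N arrays, so these counts describe calls and are not independent of each other. Of the 1710 raised responses, 736 (43.0%) were lost, 22 (1.29%) reversed, 2 (0.117%) kept and 950 (55.6%) undecided. Of the 3041 lowered responses, 1292 (42.5%) were lost, 6 (0.197%) reversed, 59 (1.94%) kept and 1684 (55.4%) undecided. Gained responses numbered 50 raised and 118 lowered probe sets. The lost raised responses had a median hypoxia effect of -0.02 with epirubicin and 1.01 without drug, on the log2 scale. For the lost lowered ones the medians were 0.10 with epirubicin and -0.72 without drug. The undecided raised responses had medians of 0.10 with epirubicin and 0.56 without drug, and the undecided lowered ones -0.10 and -0.56. A lost response needs a called difference, so the lost share by size follows in part from the definition and nothing is read from it. Of 114 raised responses of at least 2 log2 units without drug, 111 were lost (97.4%), and the 114 had a median effect of 0.01 with epirubicin and 2.55 without drug. Of 410 raised responses under 0.5, 39 were lost (9.51%), and their median effect was 0.06 with epirubicin and 0.41 without drug.

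**Figure D1:**
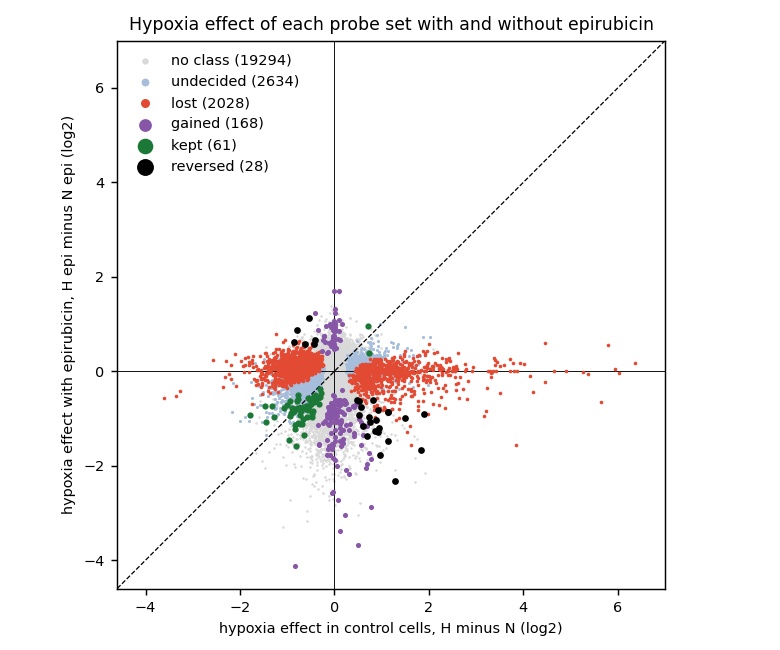
Hypoxia effect of each of the 24213 probe sets tested, with epirubicin (vertical axis, H epi minus N epi) and without drug (horizontal axis, H minus N), both in log2 units and coloured by class. The dashed line marks equal effects. The 2028 lost responses lie along the horizontal axis, the 61 kept ones mostly lie in the lower left, and the 114 rises of at least 2 log2 units without drug have a median effect of 0.01 with epirubicin.

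The lost responses did not settle at a common level. Among the 629 lost raised probe sets that were present with epirubicin, the H epi mean was below the N mean for 372 (59.1%) and at or above the H mean for 32 (5.09%). The N epi mean was below the N mean for 360 (57.2%) and at or above the H mean for 33 (5.25%). Of the 1234 lost lowered probe sets present with epirubicin, 886 (71.8%) had an H epi mean above the N mean, and 121 (9.81%) had one at or below the H mean. Another 107 raised and 58 lowered probe sets were not present on the epirubicin arrays. They passed the presence filter only through H or N and are counted among the lost responses. GC-RMA gives a probe set without signal a fixed lowest value, and 18 of the lost raised and 4 of the lost lowered probe sets held this value, within 0.001 log2 units, on all 6 epirubicin arrays. For these a hypoxia effect with epirubicin could not be measured. On at least 2 epirubicin arrays the lowest value was held by 74 lost raised and 39 lost lowered probe sets. This value can lie above the presence threshold, as for ANGPTL4, so some of these probe sets can count as present.

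Transcripts of the classical HIF response were raised by hypoxia without drug and not with epirubicin. Of 42 listed target genes, 39 were tested and 33 rose in H against N, and all 33 were lost with epirubicin. The list was written with earlier results of these data known. It holds genes that the study itself selected from these arrays, such as SPAG4 and TMEM45A, so its counts are a description. The 39 include 4 genes not present with epirubicin, among them MIR210HG and EGLN3, which entered the test only through H. The difference was lower for 35 of the 39, with a median of -2.52, a median hypoxia effect of -0.02 with epirubicin and 2.35 without drug. Over all 11271 genes tested the difference was lower for 512 and higher for 684, with a median of 0.01 and medians of -0.02 and -0.06 for the 2 hypoxia effects. Of these genes 795 rose without drug, with 359 of the rises lost, and 1592 fell, with 636 of the falls lost. On the arrays numbered 1 and 2, 25 of the 39 were lower, and without N epi replicate 2, 38 were. The 4 that did not pass were VEGFA (-2.25), CITED2 (-2.15), BHLHE40 (-3.52) and DDIT4 (-4.04), named here after their values were seen, with adjusted p of 0.0643, 0.276, 0.0927 and 0.21 by limma.

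RefSeq promoters (GRCh38.p14, 250 bases before to 50 after a gene's start) were searched for ACGTG and GCGTG on both strands, where ACGTG overlaps its own complement in CACGTG. Of 31 HIF target genes with a promoter in the table, 26 held a match (83.9%), as did 225 of 304 genes of the lost raised class (74.0%), 408 of 528 of the lost lowered class (77.3%), 6573 of 9282 tested genes (70.8%) and 14318 of all 27305 genes (52.4%). ACGTG alone was held by 61.3% of the HIF target genes, 49.0% of the lost raised and 33.7% of the lost lowered class, 3062 of the 9282 tested genes and 24.9% of all genes. The promoters of PDK1 (chr2:172555840-172556139, plus strand), ALDOC (chr17:28576846-28577145, minus strand) and LOX (chr5:122078210-122078509, minus strand) are shown because these genes carry large lost responses described next and hold 2, 5 and 4 matches, in capitals. They were picked for holding matches. The promoters of TMEM45A, EGLN3 and TNFSF10, also of the lost raised class, hold 0 in this window.
PDK1: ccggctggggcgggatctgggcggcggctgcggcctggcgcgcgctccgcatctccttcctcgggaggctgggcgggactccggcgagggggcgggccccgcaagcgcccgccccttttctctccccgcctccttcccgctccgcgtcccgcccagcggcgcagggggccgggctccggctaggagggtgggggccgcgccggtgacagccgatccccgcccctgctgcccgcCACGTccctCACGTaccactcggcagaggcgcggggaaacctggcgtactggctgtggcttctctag
ALDOC: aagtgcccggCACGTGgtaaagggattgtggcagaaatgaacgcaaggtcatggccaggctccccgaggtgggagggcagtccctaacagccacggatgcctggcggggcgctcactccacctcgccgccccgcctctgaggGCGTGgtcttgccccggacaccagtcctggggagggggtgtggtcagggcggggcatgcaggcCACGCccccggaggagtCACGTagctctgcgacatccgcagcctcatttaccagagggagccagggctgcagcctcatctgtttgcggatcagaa
LOX: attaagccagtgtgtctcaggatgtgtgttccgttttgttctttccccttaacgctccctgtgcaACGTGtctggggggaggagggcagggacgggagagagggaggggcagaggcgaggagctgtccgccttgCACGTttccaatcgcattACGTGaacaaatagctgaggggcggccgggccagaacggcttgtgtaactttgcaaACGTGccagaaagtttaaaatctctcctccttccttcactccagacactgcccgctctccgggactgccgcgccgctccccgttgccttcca
A match is a description of these letters only, and occupancy was not measured.

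The largest lost rise among genes present with epirubicin was that of SPAG4, a sperm-associated antigen gene of the nuclear envelope. Its log2 signals were 6.76, 4.83 and 6.70 in H epi and 6.72, 6.81 and 6.69 in N epi, against 11.82, 11.82 and 11.68 in H and 6.48, 5.62 and 6.31 in N. The H arrays stood apart, all N epi arrays lay above all N arrays, and H epi overlapped both of these conditions. The difference was -6.28 ± 0.61 (SE, adjusted p = 0.000319, limma). It was -6.74 (adjusted p = 0.0381) on the arrays numbered 1 and 2 and -6.25 (0.000794) without N epi replicate 2. TMEM45A, which encodes a transmembrane protein, had signals of 8.08, 7.56 and 8.07 in H epi and 7.961, 7.219 and 8.001 in N epi, against 11.43, 11.34 and 11.26 in H and 4.619, 4.504 and 5.786 in N. All epirubicin arrays lay above the highest N array and below the lowest H array. The difference was -6.20 ± 0.46 (SE, adjusted p = 5.34e-05, limma). It was -6.59 (adjusted p = 0.00591) on the arrays numbered 1 and 2 and -6.45 (7.96e-05) without N epi replicate 2. Its hypoxia effect was 0.18 ± 0.33 with epirubicin and 6.37 ± 0.33 without drug.

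Glycolysis showed the same loss. Its list shares PDK1, PFKFB4, SLC2A1 and SLC2A3 with the HIF target list, so the 2 lists are not separate. Of 27 glycolytic genes tested, 23 rose in H against N and 22 of them were lost, against 359 of 795 over all genes. The difference was lower for 22 and higher for none, with a median hypoxia effect of 0.08 with epirubicin and 1.10 without drug. On the arrays numbered 1 and 2, 10 were lower. ALDOC, the aldolase C isozyme, had signals of 6.73, 5.78 and 5.50 in H epi and 5.90, 6.10 and 6.17 in N epi, against 12.03, 11.60 and 11.75 in H and 6.46, 6.04 and 6.75 in N. Only the H arrays were high, and the difference was -5.43 ± 0.41 (SE, adjusted p = 5.38e-05, limma). It was -5.315 (adjusted p = 0.0159) on the arrays numbered 1 and 2 and -5.41 (0.000164) without N epi replicate 2. PDK1, the kinase that shuts pyruvate out of mitochondrial oxidation, had 8.26, 8.26 and 8.39 in H epi and 8.24, 8.13 and 8.26 in N epi, against 9.65, 9.86 and 9.61 in H and 6.76, 6.75 and 6.79 in N. Here the epirubicin arrays formed 1 level, above all N arrays and below all H arrays. The difference was -2.85 ± 0.12 (SE, adjusted p = 2.8e-06, limma). It was -2.935 (adjusted p = 0.00393) on the arrays numbered 1 and 2 and -2.89 (8.34e-06) without N epi replicate 2. PFKFB4 and PFKFB3 set the level of fructose 2,6-bisphosphate, the activator of phosphofructokinase. PFKFB4 lay at 3.38, 3.10 and 3.21 in H epi and 3.98, 3.87 and 3.20 in N epi, close to the presence threshold of 3.14, against 12.56, 12.44 and 12.44 in H and 8.92, 8.73 and 9.27 in N. With epirubicin it was far below its N level in both oxygen conditions. PFKFB3 had a hypoxia effect of -0.71 ± 0.20 with epirubicin, which was not called, and 2.205 ± 0.196 without drug.

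**Figure D2:**
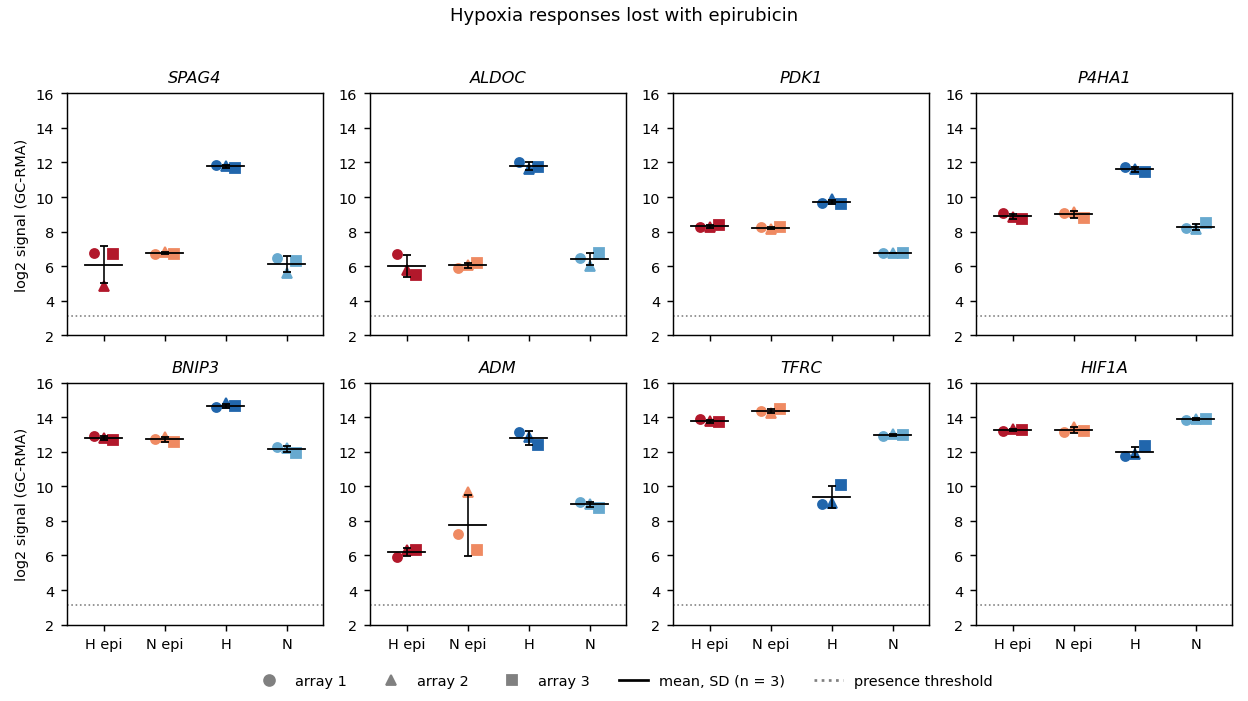
Log2 signal on each array for 8 genes whose hypoxia response was lost, in H epi, N epi, H and N from left to right, with array numbers as symbols, means as lines and bars of 1 SD (n = 3). SPAG4, ALDOC, PDK1, P4HA1, BNIP3 and ADM are highest in H, TFRC and HIF1A are lowest in H, and N epi replicate 2 of ADM lies at 9.68.

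Matrix-modifying enzymes and secreted factors are described next, and their lists also overlap the HIF target list. Shared matrix genes are P4HA1, P4HA2, PLOD1, PLOD2, LOX and LOXL2, and shared secreted factors are ADM, ANGPTL4, VEGFA and STC2. Of 17 genes of collagen and matrix modification, 10 rose without drug and 8 of these rises were lost, against 359 of 795 over all genes. A lower difference was called for 8, 5 of them on the arrays numbered 1 and 2. P4HA1, the collagen prolyl 4-hydroxylase subunit, had signals of 9.06, 8.82 and 8.76 in H epi and 9.08, 9.14 and 8.78 in N epi, against 11.73, 11.65 and 11.44 in H and 8.23, 8.15 and 8.47 in N. The epirubicin conditions overlapped each other and lay closer to N, with a difference of -3.44 ± 0.19 (SE, adjusted p = 1.08e-05, limma). It was -3.67 (adjusted p = 0.00248) on the arrays numbered 1 and 2 and -3.37 (3.56e-05) without N epi replicate 2. LOX and PLOD2, which prepare collagen for cross-linking, had hypoxia effects of 0.11 ± 0.13 and 0.08 ± 0.12 with epirubicin and of 3.51 ± 0.13 and 2.56 ± 0.12 without drug. Of 16 secreted factors, the difference was lower for 6 (512 of 11271 over all genes) and higher for 1 (684 over all genes), IGFBP5, which rose with epirubicin by 0.85. For the arrays numbered 1 and 2 it was lower for 2 and higher for 0 of 15 tested by limma, with 8 at an unadjusted p under 0.05. ADM, the vasodilator peptide adrenomedullin, had signals of 5.92, 6.32 and 6.30 in H epi and 7.24, 9.68 and 6.30 in N epi, against 13.16, 12.87 and 12.37 in H and 9.10, 8.99 and 8.77 in N. The value of N epi replicate 2 exceeded all N arrays, while the other epirubicin arrays lay below them. The difference was -5.41 ± 0.93 (SE, adjusted p = 0.00644, limma), and it was called in 22 of 23 alternatives. It was -6.31 (adjusted p = 0.0586) on the arrays numbered 1 and 2, where the call was lost, and -4.44 (0.000243) without N epi replicate 2. ANGPTL4, an angiopoietin-like inhibitor of lipoprotein lipase, was at 4.56 on all 6 epirubicin arrays, its lowest value, against 10.94, 10.52 and 10.78 in H and 5.66, 5.76 and 6.08 in N. Its rise of 4.91 ± 0.13 without drug had no measurable counterpart with epirubicin. STC1, which encodes stanniocalcin, had hypoxia effects of -0.22 ± 0.24 with epirubicin and 1.94 ± 0.24 without drug. For IGFBP3, which binds insulin-like growth factors, they were 0.13 ± 0.11 and 1.96 ± 0.11.

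Some targets were not present with epirubicin at all. MIR210HG, the host transcript of miR-210, lay at 2.28 on all 3 H epi arrays and at 2.42, 2.28 and 2.28 in N epi, against 9.32, 8.88 and 8.21 in H and 3.36, 2.32 and 2.66 in N. All epirubicin arrays were below the presence threshold and all H arrays far above it. Its rise without drug was at least 48.1-fold, where each N array enters at its own signal or at that threshold, whichever is higher. EGLN3, the HIF prolyl hydroxylase, was at 3.03 on the H epi arrays and at 3.03, 2.53 and 3.03 in N epi, against 7.405, 6.677 and 6.681 in H and 3.03, 3.03 and 2.90 in N. Its rise without drug was at least 13.7-fold. MIR210HG and EGLN3 entered the test only through H, so their values are given as a description only. Among the 39 HIF target genes, 4 were not present with epirubicin, these and RORA and PPFIA4, the last pair named after their values were seen.

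In the sensing machinery itself a few differences were called, in both directions. EGLN1, the main HIF prolyl hydroxylase, had a hypoxia effect of -0.63 ± 0.20 with epirubicin, not called, and of 1.88 ± 0.20 without drug. HIF1A mRNA had signals of 13.20, 13.32 and 13.26 in H epi and 13.14, 13.46 and 13.20 in N epi, against 11.74, 11.88 and 12.32 in H and 13.84, 13.92 and 13.91 in N. Only the H arrays were low, and the epirubicin arrays lay slightly below N. The effect with epirubicin was -0.01 ± 0.14, that without drug -1.90 ± 0.14 and the difference 1.90 ± 0.20 (SE, adjusted p = 0.000518, limma). It was 2.02 (adjusted p = 0.0172) on the arrays numbered 1 and 2 and 1.99 (0.000547) without N epi replicate 2. EPAS1, the other alpha subunit, had a difference of -0.66 ± 0.30, and ARNT one of 0.05 ± 0.26. Neither was called in any of 23 alternatives, with adjusted p from 0.147 to 0.47 for EPAS1 and from 0.314 to 1 for ARNT by limma. Of the 17 genes of this list, the difference was lower for 2, EGLN1 and EGLN3 (512 of 11271 over all genes). It was higher for 1, HIF1A (684 over all genes). EGLN3 entered the test only through H, and EGLN1 and EGLN3 are also on the HIF target list. A fall with epirubicin was called for 1 of the 17 (213 over all genes). From counts this small nothing is read about the list.

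Among 18 JmjC histone demethylases, which need oxygen as a substrate, 4 rose without drug. KDM3A, KDM4B and KDM4C are also on the HIF target list. The difference was lower for 4 (512 of 11271 over all genes) and higher for 1, RIOX2 (684 over all genes). KDM3A, a demethylase of histone H3 lysine 9, had signals of 6.10, 6.41 and 6.12 in H epi and 6.50, 8.32 and 6.11 in N epi, against 11.396, 11.178 and 11.005 in H and 8.94, 8.68 and 8.93 in N. All epirubicin arrays were below N, N epi replicate 2 the least. The difference was -3.11 ± 0.63 for KDM3A and -2.35 ± 0.48 for KDM4B, each called in 21 of 23 alternatives, with adjusted p up to 0.0946 and 0.0686. KDM2B fell with epirubicin by 1.14 ± 0.19, while its effect without drug was 0.58 ± 0.19 and not called. That fall was called in 18 of 23 alternatives and not without N replicate 1, with adjusted p from 0.00189 to 0.132. On the arrays numbered 1 and 2, 0 of 17 tested had a called difference by limma, with 6 at an unadjusted p under 0.05.

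Genes that remove mitochondria or handle iron lost responses of both signs, and BNIP3 and BNIP3L are also on the HIF target list. BNIP3, a receptor for mitophagy, had signals of 12.89, 12.80 and 12.65 in H epi and 12.73, 12.85 and 12.57 in N epi, against 14.58, 14.80 and 14.62 in H and 12.26, 12.23 and 11.93 in N. The epirubicin conditions shared 1 level between N and H, and the difference was -2.46 ± 0.17 (SE, adjusted p = 3.77e-05, limma). It was -2.39 (adjusted p = 0.00719) on the arrays numbered 1 and 2 and -2.40 (0.000106) without N epi replicate 2. Its relative BNIP3L had hypoxia effects of 0.09 ± 0.12 with epirubicin and 2.25 ± 0.12 without drug. TFRC, the transferrin receptor, had the largest lost fall among genes present with epirubicin. It stood at 13.87, 13.76 and 13.70 in H epi and 14.37, 14.23 and 14.46 in N epi, against 8.996, 9.036 and 10.103 in H and 12.93, 13.01 and 12.99 in N. All epirubicin arrays were above all N arrays, and H alone was low. The effect with epirubicin was -0.57 ± 0.24, not called, and that without drug -3.60 ± 0.24. The difference of 3.02 ± 0.34 (SE, adjusted p = 0.00073, limma) was called in 23 of 23 alternatives. It was 3.47 (adjusted p = 0.00248) on the arrays numbered 1 and 2 and 2.96 (0.00173) without N epi replicate 2.

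Falls in genes of ribosome biogenesis were lost as well. Of 20 genes of ribosome biogenesis, 14 fell in H against N and 10 of them were lost (71.4%, against 636 of 1592 falls over all genes). The difference was higher for 10, with a median hypoxia effect of -0.04 with epirubicin and -0.66 without drug. On the arrays numbered 1 and 2 the difference passed for 0 by limma, with 10 at an unadjusted p under 0.05, and without N replicate 2 it passed for 5. RRP12, a ribosomal RNA processing factor, had signals of 8.62, 8.26 and 8.51 in H epi and 8.43, 8.44 and 8.42 in N epi, against 5.91, 6.72 and 5.83 in H and 7.616, 7.999 and 7.486 in N. The epirubicin arrays exceeded those of N and overlapped each other, and the difference was 1.59 ± 0.31. It was 1.01 ± 0.20 for POLR1A, the largest subunit of RNA polymerase I, 0.96 ± 0.16 for WDR12 and 0.81 ± 0.16 for NOP58, a core protein of small nucleolar particles. These 4 were called in 20 to 22 of 23 alternatives. Further probe sets of WDR12 had differences of -0.08 and 0.31 that were not called. WDR4, RRS1 and VIPR1 are members of none of the lists and are named for the size of their lost falls. WDR4, a subunit of a tRNA methyltransferase, had 7.52, 7.62 and 7.21 in H epi and 7.02, 7.33 and 6.89 in N epi, against 4.65, 4.87 and 4.19 in H and 6.72, 6.92 and 6.37 in N. H was the only low condition, and the difference of 2.48 ± 0.29 was called in 23 of 23 alternatives. A second probe set of WDR4 had a difference of 0.99 that was not called. RRS1, a ribosome assembly factor, had signals of 6.40, 7.53 and 6.48 in H epi and 6.98, 6.83 and 6.20 in N epi, against 6.52, 7.58 and 6.78 in H and 9.51, 9.27 and 8.70 in N. In contrast to WDR4, its epirubicin arrays lay at the H level. Its difference of 2.33 ± 0.53 was called in 16 of 23 alternatives (adjusted p up to 0.142) and not without N replicate 1, N replicate 2, H replicate 1 or H replicate 3. VIPR1, the receptor of vasoactive intestinal peptide, had a difference of 2.19 ± 0.56, called in 11 of 23 alternatives (adjusted p 0.0224 to 0.204). Its call was lost on leaving out any single array but N replicate 2, H replicate 1 and H replicate 2.

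Of 30 mitotic genes, 17 fell in H against N and 2 rose. Of the falls, 7 were lost (41.2%, against 636 of 1592 falls over all genes) and 2 (AURKA and CENPF, named after their values were seen) kept. The difference was higher for 7 on all arrays and for 3 to 4 without N replicate 1, 2 or 3, H replicate 1 or 3, or N epi replicate 2, and for 0 on the arrays numbered 1 and 2 by limma, with 10 at an unadjusted p under 0.05. CCNB1, the cyclin that drives entry into mitosis, had a hypoxia effect of -0.30 ± 0.10 with epirubicin and -1.09 ± 0.10 without drug, with a difference of 0.79 ± 0.14. BIRC5, which encodes survivin, had effects of 0.20 ± 0.08 with epirubicin and -0.56 ± 0.08 without drug, with a difference of 0.76 ± 0.11. Both differences were called in 22 of 23 alternatives. Of 29 DNA replication genes 6 fell without drug, and 0 of these falls were lost and 6 undecided, against 636 of 1592 falls lost over all genes. Among 20 chaperones and sensors of the endoplasmic reticulum, 9 rose and 1 fell without drug. Of these, 3 rises were lost, against 359 of 795 over all genes, and 7 responses were undecided. The difference was lower for 3, and for 0 on the arrays numbered 1 and 2 by limma, with 8 at an unadjusted p under 0.05. HSP90B1 and PDIA4, luminal folding factors, had hypoxia effects of 0.06 ± 0.12 and 0.14 ± 0.13 with epirubicin and of 1.00 ± 0.12 and 1.08 ± 0.13 without drug. HSPA4, a cytosolic chaperone, had an effect of -0.003 ± 0.090 with epirubicin and fell by 1.105 ± 0.090 without drug. TIGAR, a p53 target that restrains glycolysis, had an effect of 0.04 ± 0.14 with epirubicin and fell by 1.41 ± 0.14 without drug. TNFSF10, the death ligand TRAIL, had an effect of -0.02 ± 0.22 with epirubicin and rose by 1.79 ± 0.22 without drug. Of these, HSPA4 was called for the difference in 23 of 23 alternatives. Its other probe sets had differences of 1.06, 1.24 and 0.30, the last of which was not called. TIGAR was called in 22, not on the arrays numbered 1 and 2, and HSP90B1, PDIA4 and TNFSF10 in 21, neither there nor on the arrays numbered 1 and 3.

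**Figure D3:**
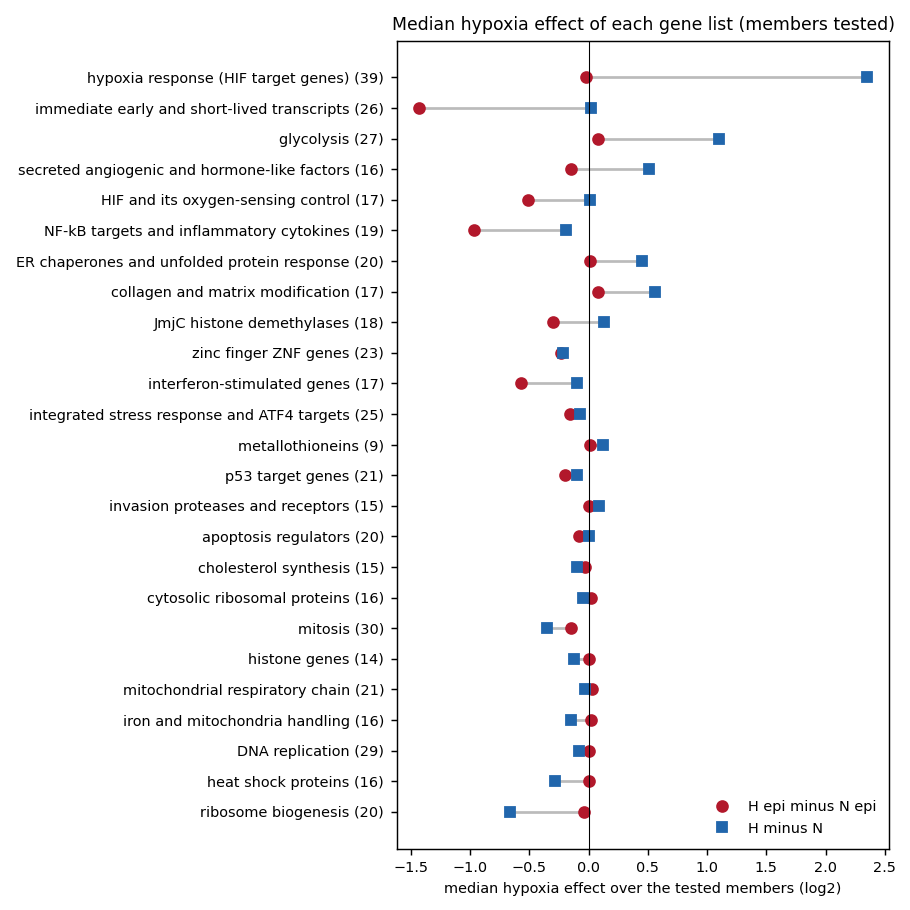
Median hypoxia effect over the tested members of each gene list, with epirubicin (circles) and without drug (squares), in log2 units, ordered by the median difference, with the number of genes tested in brackets. HIF target genes lie at -0.02 with epirubicin and 2.35 without drug, ribosome biogenesis at -0.04 with epirubicin and -0.66 without drug, and immediate early transcripts lie at -1.43 with epirubicin and 0.02 without drug.

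The immediate early and short-lived transcripts had the second-lowest median difference of the lists, and it rested on wide spreads. Over 26 genes the median hypoxia effect was -1.43 with epirubicin and 0.02 without drug, with 0 called in either direction with epirubicin by limma (9 at an unadjusted p under 0.05) and 1 lower difference, that of ID1. Without N epi replicate 2, 4 had a called fall with epirubicin. IER3, a short-lived early response transcript, had signals of 7.18, 7.17 and 7.92 in H epi and 8.42, 12.88 and 8.26 in N epi, against 14.60, 14.28 and 14.28 in H and 14.59, 14.83 and 14.53 in N. N epi replicate 2 was far above the other epirubicin arrays, and the difference of -2.17 ± 1.36 was not called in any of 23 alternatives (adjusted p 0.178 to 0.743). ID1, an inhibitor of helix-loop-helix factors, had 5.02, 5.67 and 4.96 in H epi and 5.93, 7.86 and 5.72 in N epi, against 11.78, 11.95 and 11.84 in H and 10.43, 10.06 and 10.45 in N. Its difference of -2.83 ± 0.65 was called in 16 of 23 alternatives (adjusted p up to 0.139) and not without N replicate 1, N replicate 2, H replicate 1 or H epi replicate 3. In the NF-kB targets (19 genes), DNA replication genes (29), histone genes (14), metallothioneins (9) and ribosomal proteins (16), the difference was called for 0 genes by limma. Over all 11271 genes it was called lower for 512 and higher for 684, and nothing is read from 0 in lists this small. At an unadjusted p under 0.05 there were 2 NF-kB targets, 6 replication genes, 0 histone genes, 1 metallothionein and 0 ribosomal protein genes, and without N epi replicate 2 the difference passed for 1 NF-kB target.

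Reversed responses were few, and 22 of the 28 rose without drug and fell with epirubicin. RAB20, a small GTPase of endocytic traffic, had signals of 3.10, 4.24 and 3.72 in H epi and 5.01, 6.03 and 5.01 in N epi, against 10.28, 10.34 and 10.10 in H and 8.41, 8.43 and 8.38 in N. H epi was the lowest condition and H the highest, with no overlap. The hypoxia effect was -1.66 ± 0.31 with epirubicin (adjusted p = 0.0299, limma) and 1.83 ± 0.31 without drug. DIPK2A, which encodes a secretory pathway protein, had 7.03, 6.85 and 6.88 in H epi and 7.57, 8.43 and 7.73 in N epi, against 9.47, 9.69 and 9.53 in H and 7.88, 8.16 and 8.19 in N. H epi was lowest and H highest, while N epi and N overlapped. Its effects were -0.99 ± 0.19 with epirubicin and 1.49 ± 0.19 without drug. ST3GAL1, a sialyltransferase, fell with epirubicin to 3.09, 3.09 and 3.61 in H epi, against 4.71, 5.73 and 4.69 in N epi. Since H epi was not present by the rule used, this fall is given as at least 3.35-fold, and without drug the gene rose by 0.96 ± 0.28, while its other 2 probe sets had no called effect. APOLD1, an early response gene of endothelium, had effects of -1.29 ± 0.22 with epirubicin and 0.92 ± 0.22 without drug. The fall with epirubicin was called in 13 of 23 alternatives for RAB20, 10 for DIPK2A, 18 for ST3GAL1 and 17 for APOLD1, with adjusted p up to 0.208, 0.231, 0.119 and 0.156, and for none of them on the arrays numbered 1 and 2. It was also lost for RAB20 without any single array of N or H or H epi replicate 3, for DIPK2A without any of N or H or H epi replicate 2 or 3, for ST3GAL1 without H epi replicate 2 and for APOLD1 without N replicate 1 or 3. The difference itself was called for these 4 in 22 or 23 of 23 alternatives.

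PEX26, a peroxisome assembly factor, was the single gene by its highest probe set that fell without drug and rose with epirubicin. Its signals were 7.94, 7.80 and 8.11 in H epi and 7.21, 7.35 and 7.53 in N epi, against 6.16, 6.28 and 6.02 in H and 6.72, 6.67 and 6.95 in N. No conditions overlapped. The effects were 0.58 ± 0.12 with epirubicin and -0.63 ± 0.12 without drug, and the difference of 1.21 ± 0.17 was called in 23 of 23 alternatives. The rise with epirubicin alone was called in 6 of 23 (adjusted p 0.0184 to 0.144) and was lost without any single array but N epi replicate 3.

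Of 61 kept responses, 59 were falls. GPAT4, which starts glycerolipid synthesis, had signals of 5.68, 5.74 and 5.85 in H epi and 7.14, 7.34 and 6.84 in N epi, against 7.86, 7.74 and 8.05 in H and 8.62, 8.51 and 8.46 in N. The 4 conditions were stepped without overlap, H epi lowest and N highest. The effects were -1.36 ± 0.13 with epirubicin, called in 23 of 23 alternatives, and -0.65 ± 0.13 without drug, while another probe set of the gene had effects of 0.00 and 0.17 that were not called. The difference of -0.71 ± 0.18 was called in 6 of 23 alternatives (adjusted p 0.0139 to 0.122), and leaving out any single array but H replicate 2 and N epi replicate 3 ended that call. SLC25A28, a mitochondrial iron importer, had 5.92, 5.63 and 5.61 in H epi and 6.75, 7.18 and 6.54 in N epi, against 7.68, 7.71 and 7.64 in H and 8.71, 8.31 and 8.31 in N. It showed the same order of conditions, with effects of -1.10 ± 0.17 with epirubicin and -0.77 ± 0.17 without drug and a difference of -0.34 ± 0.24. SLC61A1, a molybdate transporter, had effects of -1.58 ± 0.25 with epirubicin and -0.82 ± 0.25 without drug, and CCDC126, a coiled-coil gene of unassigned role here, -1.12 ± 0.23 and -0.73 ± 0.23. The fall with epirubicin was called in 20 of 23 alternatives for SLC25A28 and SLC61A1 and in 10 for CCDC126, whose call was lost without any single array of N or H or H epi replicate 2 or 3. Second probe sets of SLC25A28 and CCDC126 had effects of -0.79 and -0.44 with epirubicin that were not called. The 2 kept rises, named after their values were seen, were single probe sets of IDH2 and CANX. The IDH2 probe set rose by 0.96 ± 0.17 with epirubicin and 0.71 ± 0.17 without drug, and the CANX one by 0.39 ± 0.08 and 0.72 ± 0.08. For neither did the gene's brightest probe set show a called rise with epirubicin.

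Gained responses were mostly falls. CXCR4, the chemokine receptor of CXCL12, had signals of 3.10, 3.05 and 3.15 in H epi and 6.38, 8.05 and 5.92 in N epi, against 6.32, 6.25 and 5.27 in H and 5.666, 5.405 and 5.283 in N. H epi was at the presence threshold and below every other array, and N epi replicate 2 was the highest. All N epi arrays lay above all N arrays, and H overlapped both of these conditions. The fall with epirubicin was at least 12.4-fold, against an effect of 0.49 ± 0.47 without drug that was not called, and the fitted difference of -4.17 ± 0.66, which is no measured size since H epi was not above the threshold, was called in 23 of 23 alternatives. It was -4.88 (adjusted p = 0.0472) on the arrays numbered 1 and 2 and -3.54 (0.000794) without N epi replicate 2. SOX4, a transcription factor of progenitor cells, had 2.83, 2.72 and 2.68 in H epi and 6.05, 8.73 and 5.81 in N epi, against 8.99, 9.84 and 9.63 in H and 10.43, 10.10 and 10.40 in N. H epi was the lowest, without overlap, and N epi lay below H and N. Its fall with epirubicin was at least 13.2-fold and was called in 21 of 23 alternatives. The fitted difference of -3.30 ± 0.87, for the same reason no measured size, was called in 11 of 23, with adjusted p from 0.00181 to 0.175, and leaving out any single array of H epi, H or N ended that call. The 3 other probe sets of SOX4 had effects of -3.29, -1.48 and -0.31 with epirubicin, the first of which was called, and no called difference. Their effects without drug were -1.08, -0.88 and -1.605, the last of which was called. On the probe set used, all H arrays also lay below all N arrays, though this effect was not called. A fall of SOX4 without drug is therefore not excluded by its class. KRCC1, a lysine-rich coiled-coil gene, fell with epirubicin by 2.04 ± 0.26 and THNSL1, a threonine synthase-like gene, by 1.97 ± 0.26, while their effects without drug of 0.66 ± 0.26 and 0.68 ± 0.26 were not called.

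**Figure D4:**
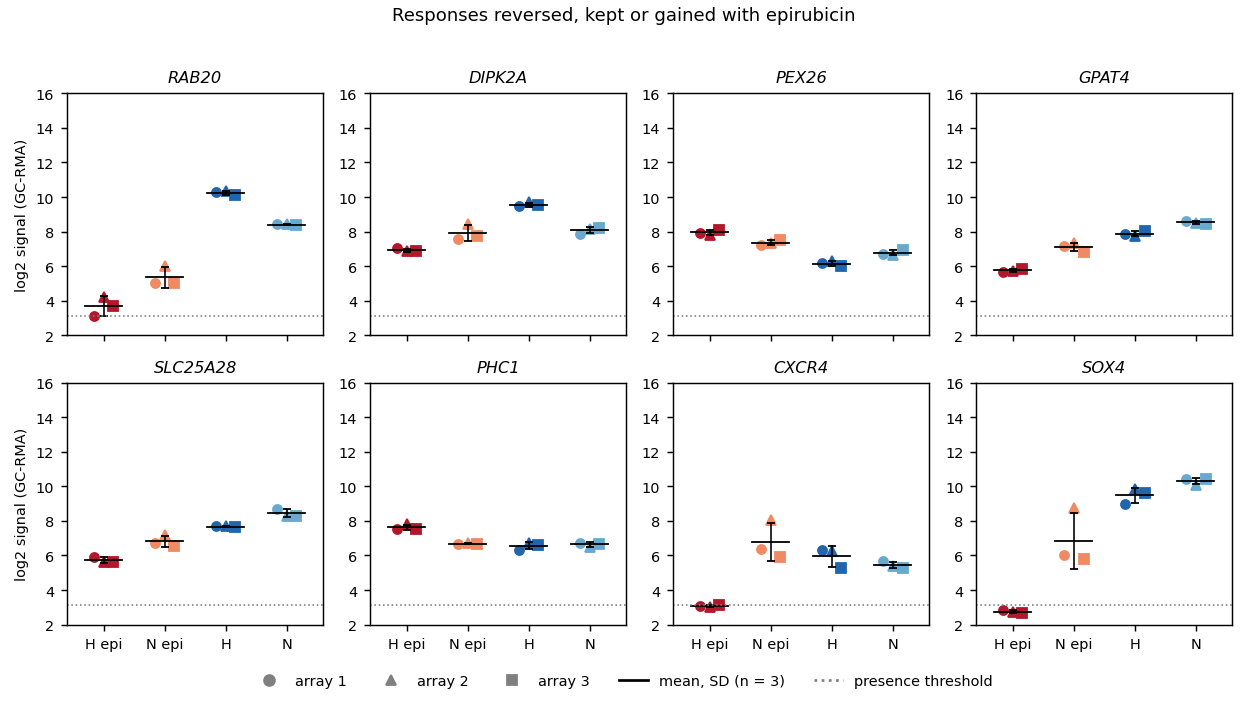
Log2 signal on each array in H epi, N epi, H and N from left to right for genes whose response was reversed (RAB20, DIPK2A, PEX26), kept (GPAT4, SLC25A28) or gained (PHC1, CXCR4, SOX4), with means as lines and bars of 1 SD (n = 3). RAB20 is highest in H and lowest in H epi, GPAT4 and SLC25A28 are lower in H epi than in N epi and in H than in N, and SOX4 lies below the presence threshold of 3.14 in H epi.

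Gained rises were smaller. PHC1, a Polycomb protein, had signals of 7.54, 7.80 and 7.52 in H epi and 6.68, 6.70 and 6.68 in N epi, against 6.33, 6.72 and 6.61 in H and 6.75, 6.50 and 6.67 in N. H epi alone was high, with effects of 0.94 ± 0.12 with epirubicin and -0.08 ± 0.12 without drug, and the rise was called in 21 of 23 alternatives (adjusted p up to 0.141). A second probe set of PHC1 had effects of 0.24 and -0.20 that were not called. BBS5, a ciliary trafficking gene, and TNFRSF25, a death domain receptor, were present only in H epi, at 3.32, 3.79 and 3.28 and at 3.19, 3.14 and 4.10. They entered the test only through H epi, so their values are given as a description only. Their rises amount to at least 1.25-fold and 1.26-fold, and TNFRSF25 held its lowest value of 2.42 on all other arrays. TMEM182, a membrane protein gene, rose by 1.08 ± 0.19 with epirubicin, with an effect of 0.09 ± 0.19 without drug. The rise was called in 14 of 23 alternatives, with adjusted p up to 0.18, and leaving out N epi replicate 2, H epi replicate 2 or 3, or replicate 3 of N or H ended that call.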

How the data were processed

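The deposited values are log2 signals that, per the study's methods, the authors computed from the Affymetrix arrays by GC-RMA, which corrects background by probe sequence, normalizes between arrays and summarises each probe set. The methods name alternative chip definition files, while the deposited identifiers are the platform's own. Of 54613 probe sets, those above the presence threshold of 8.84 on the linear scale (log2 3.14) on at least 2 of 3 arrays of a condition were tested. Effects, standard errors and p-values came from limma 3.58.1 (lmFit and eBayes) in R 4.3.3 (package data.table, version 1.17.8), fitted on 12 arrays grouped by title, with Benjamini-Hochberg adjustment. Python 3.11.15, pandas 2.3.3 and matplotlib 3.10.9 made the summaries and plots. Scripts were tested on simulated data. A symbol came from the platform annotation: 41097 probe sets had 1, 1801 several and 11777 none, and a gene was read by its probe set of highest mean. Named genes were the 4 of largest difference (for kept responses, of largest effect with epirubicin) in each class and direction, 2 lost ones not present with epirubicin, up to 4 called members of each list, or 2 of highest level where few were called, and HIF1A, EPAS1 and ARNT. Of these, 58 are described. Members and lists were chosen with earlier results of these data known. Alternatives changed the arrays, grouping, filter, scaling, variance model and replicate block. The number of arrays limits the precision.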

Additional observations from a re-analysis of the deposited data

Results flagged for a closer look

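The difference between the hypoxia effect with epirubicin and that without drug was itself called by limma for 1449 probe sets with a higher and 1005 with a lower value, and these differences are given here for the genes described, on the log2 scale. Lost rises differed for SPAG4 (-6.28), TMEM45A (-6.20), ALDOC (-5.43), ADM (-5.41), MIR210HG (-6.07), EGLN3 (-3.76), ANGPTL4 (-4.91), PFKFB4 (-3.96), PFKFB3 (-2.92), PDK1 (-2.85), P4HA1 (-3.44), PLOD2 (-2.48), LOX (-3.40), STC1 (-2.16), IGFBP3 (-1.83), KDM3A (-3.11), KDM4B (-2.35), BNIP3 (-2.46), BNIP3L (-2.16), EGLN1 (-2.51), HSP90B1 (-0.94), PDIA4 (-0.94), ID1 (-2.83) and TNFSF10 (-1.81). Lost falls differed for HIF1A (1.90), TFRC (3.02), WDR4 (2.48), RRS1 (2.33), VIPR1 (2.19), CCNB1 (0.79), BIRC5 (0.76), RRP12 (1.59), POLR1A (1.01), WDR12 (0.96), NOP58 (0.81), HSPA4 (1.10) and TIGAR (1.45). Rises that turned into falls differed for RAB20 (-3.49), ST3GAL1 (-2.74), DIPK2A (-2.48) and APOLD1 (-2.21). The fall that turned into a rise differed for PEX26 (1.21). A kept fall that was deeper with epirubicin differed for GPAT4 (-0.71). Gained falls differed for KDM2B (-1.72), CXCR4 (-4.17), SOX4 (-3.30), KRCC1 (-2.70) and THNSL1 (-2.65). Gained rises differed for BBS5 (1.08), TNFRSF25 (1.06), PHC1 (1.02) and TMEM182 (0.99). For MIR210HG, EGLN3, ANGPTL4, ST3GAL1, CXCR4, SOX4, BBS5 and TNFRSF25 the signals of at least 1 condition were not above the presence threshold or, for ANGPTL4, stood at the lowest value on the epirubicin arrays, so the fitted difference is neither a measured size nor a bound. BBS5 and TNFRSF25 entered the test only through H epi, and MIR210HG and EGLN3 only through H. Leaving out a single array ended the call of the difference for RRS1 and ID1 with any of 4 arrays, for VIPR1, SOX4 and TNFRSF25 with any of 9, and for GPAT4 and TMEM182 with any of 10. For TNFRSF25 the difference was called in 6 of the 18 alternatives in which it was tested.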

How the results depend on the processing

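No called difference or hypoxia effect of the genes described changed sign under the alternatives run (the uncalled differences of ARNT and CCDC126 did), and each count below is by limma. The alternatives share arrays with the main fit, so the agreement in sign was largely fixed by this overlap. Counts are given for the difference, the hypoxia effect with epirubicin, the effect without drug, and the classes, against 2454, 419 and 4751 probe sets called and 2028 lost, 61 kept, 28 reversed and 168 gained on all arrays. With the arrays numbered 1 and 2 they were 324, 26 and 1652 called, with 280 lost, 2 kept, 3 reversed and 18 gained. There the difference was lower for 10 glycolytic and 5 matrix genes and higher for 0 ribosome biogenesis and 0 mitotic genes. With all 6 conditions fitted, the effect with epirubicin was called for 1334, with 179 kept, 73 reversed and 430 gained. With these conditions on the arrays numbered 1 and 2, the difference was called for 974 and the effect without drug for 2320, with 741 lost, 23 kept, 3 ribosome biogenesis and 3 mitotic genes. With the arrays numbered 3 grouped by source name, each of these counts was 0 (106, 324 and 1069 at an unadjusted p under 0.05). For the arrays numbered 1 and 3, an alternative chosen after seeing the data, the difference was called for 1622 and the effect with epirubicin for 102, with 13 kept, 7 reversed, 74 gained and 4 mitotic genes.

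Without a presence filter the difference was called for 1458 and the effect with epirubicin for 105, with 1296 lost, 17 kept, 6 reversed and 68 gained. Quantile normalization gave 44 reversed, and median centring moved the median of all probe sets by 0.149 for the effect with epirubicin, 0.084 for that without drug and 0.064 for the difference. A trended, robust variance called 650 with epirubicin and kept 103. Array weights gave 121 kept, 52 reversed and 276 gained. In the H epi and N epi arrays alone 0 were called (2656 unadjusted). With at least 1 log2 unit, 1005, 165 and 882 were called.

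The replicate numbers did not meet the rule set for pairing: 18 correlations of same-numbered deviations were -0.053 to 0.287 (median 0.0545), 5 of them over 0.1, where the rule asked this of every pair. The 3 between H and N were 0.166, 0.165 and 0.287, and none of the 36 between different numbers was over 0.064. Between N epi and N they were 0.152, 0.135 and 0.057. Failing the rule does not show that the arrays are unpaired, so the fit with a block is given too. With the number as a replicate block the difference was called for 2232, the effect with epirubicin for 133, with 23 kept, 13 reversed and 74 gained. Of the 52 called differences described, 49 were called with the block, and those of GPAT4 (adjusted p = 0.0686), TMEM182 (0.0668) and TNFRSF25 (0.055) were not. The effect with epirubicin was then not called for DIPK2A (0.0565), ST3GAL1 (0.0523), APOLD1 (0.0532), KDM2B (0.0611), CCDC126 (0.0827), PEX26 (0.0721), TMEM182 (0.0588) and TNFRSF25 (0.061).

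Leaving out 1 array, the difference was called for 1420 (N replicate 1) to 2505 (N epi replicate 3), the effect with epirubicin for 139 (N replicate 3) to 892 (H epi replicate 1) and the effect without drug for 3114 (N replicate 2) to 5472 (N epi replicate 2). Lost probe sets numbered 1238 to 2063, kept 14 to 171, reversed 6 to 52 and gained 64 to 354, lowest without N replicate 1. The effect with epirubicin was within 1.5 times its count only without N epi replicate 1 or 2. Lower differences numbered 33 to 38 for HIF targets, 18 to 22 for glycolysis and 7 to 9 for matrix genes, and higher ones 5 to 10 for ribosome biogenesis and 3 to 7 for mitosis. Causes were not tested. Signals near the presence threshold and at the lowest value limit what can be said of weak transcripts with epirubicin.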
